A study of Homo sapiens with 45 samples.

Results

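The 37 genes of the human mitochondrial genome were followed through 45 RNA-seq libraries of T47D cells, a hormone-receptor-positive human breast cancer line. The genes were taken by name, as every gene whose symbol begins with MT- in the deposited tables, and they make up 37 of the 60624 genes counted. They comprise 13 mRNAs, 2 ribosomal RNAs and 22 transfer RNAs. The low-count filter passed 23 of them among the shRNA libraries, 24 among the hexanediol libraries, 20 among the rescue libraries and 21 among the sgRNA libraries. The 13 mRNAs and both rRNAs passed in all 4 tables, and the genes that did not pass were all tRNA genes.

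The study varied oxygen and the transcription factor ZHX2, in 15 groups of 3 libraries held in 4 count tables. The shRNA table holds cells with the control hairpin shCtrl in normoxia, the same cells in hypoxia, and hypoxic cells whose hairpin targets ZHX2 (shZHX2). The hexanediol table holds untreated control cells and cells given 0.5% or 1% 1,6-hexanediol, an alcohol that dissolves many protein condensates, for 24 h, all labelled as hypoxia. The rescue table holds shCtrl cells with vector, shZHX2 cells with vector, and shZHX2 cells labelled WT, PA or SA, all in hypoxia. The labels do not spell out what WT, PA and SA stand for. The sgRNA table holds sgCtrl, sgZHX2, teton_control and teton_sgZHX2 cells, all in hypoxia, and the labels name no inducer for the last pair. Cells that received lentivirus were selected with hygromycin or puromycin, and the labels do not say whether lines are single clones or whether the 3 libraries of a group come from separate cultures. The p-values therefore measure the spread between these libraries, which may be technical. The oxygen level of the hypoxia workstation is not given in the sources used here.

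Human mitochondrial DNA is a small circle transcribed from both strands into long precursors. The tRNAs lie between most of the mRNAs and rRNAs, and their excision by nuclear-encoded RNases releases the neighbouring transcripts. The mRNAs encode core subunits of respiratory complexes I (the ND genes), III (MT-CYB) and IV (the CO genes) and of the ATP synthase, complex V (the ATP genes). The other subunits, the mitochondrial RNA polymerase POLRMT, the packaging and transcription factor TFAM and the mRNA-stabilising protein LRPPRC are made from nuclear genes. In this annotation 28 of the 37 genes lie on the plus strand and 9 on the minus strand. The minus-strand genes are MT-ND6 and 8 tRNA genes, and each lies opposite the precursor of the other strand. Most mitochondrial mRNAs carry short polyA tails and the rRNAs shorter ones, so a polyA-selected library recovers them by tail as well as by abundance.

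Library depth ran from 14111216 to 27217814 counts. All 12 luminal epithelial markers averaged above 1 CPM (counts scaled to library depth, with edgeR's TMM factors) in each table. Their sum ran from 4619 to 31420 CPM among the hexanediol libraries. Of 17 basal, fibroblast, leukocyte and endothelial markers 11 to 14 averaged under 1 CPM per table. The 17 summed to 46.8 to 82.3 CPM in the shRNA libraries and 55.2 to 65.1 CPM in the hexanediol libraries. They summed to 1210 to 2067 CPM in the rescue libraries and 636 to 1750 CPM in the sgRNA libraries, where KRT17, COL1A1 and ACTA2 averaged above 1 CPM. ZHX2 itself averaged 18.8 CPM in shCtrl hypoxia and 5.15 CPM in shZHX2 hypoxia, and in the rescue libraries it averaged 32.0 CPM with shCtrl, 6.85 CPM with shZHX2 and vector, and 53.9 to 80.5 CPM with WT, PA or SA. It averaged 45.1 CPM in sgCtrl and 49.5 CPM in the libraries labelled sgZHX2, so the counts do not check those labels, since a Cas9 cut need not lower the mRNA. The control group of the hexanediol table averaged 0.96 CPM of CA9, a hypoxia-induced gene, against 23.5 CPM in shCtrl hypoxia and 0.014 CPM in normoxia. NDRG1, another hypoxia-induced gene, averaged 224 CPM in those controls, against 484 CPM in shCtrl hypoxia and 6.71 CPM in normoxia, each table scaled on its own. Replicate 2 of 0.5% hexanediol stood apart for the mitochondrial genes, and results that rest on it are given without it. Replicate 2 of 1% hexanediol also stood apart from its group. The chi-square per degree of freedom was 9.77 and 9.90 for its pairs and 2.04 for replicates 1 and 3. MT-CO3 measured 701 CPM in it, against 462 and 517 CPM in the other 1% libraries. NDRG1 ran from 24.8 to 263 CPM among the 0.5% libraries and from 26.4 to 126 CPM among the 1% libraries.

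4 tRNA genes of the minus strand carry the tRNA results and are shown first. They are MT-TN (tRNA for asparagine), MT-TC (cysteine) and MT-TY (tyrosine), which lie beside each other between MT-ND2 and MT-CO1, and MT-TP (proline), which lies beside the control region. Their sequences are read 5′ to 3′ on the gene's own strand from the reference mitochondrial sequence (hg38), with the anticodon in capitals. They lie at chrM:5657-5729, chrM:5761-5826, chrM:5826-5891 and chrM:15956-16023, in the order printed.
MT-TN: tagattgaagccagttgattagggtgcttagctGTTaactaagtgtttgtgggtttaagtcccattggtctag
MT-TC: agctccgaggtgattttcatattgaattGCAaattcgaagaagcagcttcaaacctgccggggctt
MT-TY: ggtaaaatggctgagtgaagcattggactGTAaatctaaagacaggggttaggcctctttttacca
MT-TP: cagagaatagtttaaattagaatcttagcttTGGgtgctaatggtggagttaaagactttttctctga
The 22 tRNA genes are 59 to 75 bases long, shorter than the 150-base reads, so a count at one of them comes from a longer RNA, a precursor or the antisense transcript as well as a trimmed tRNA. MT-TP took 49.6% of all tRNA counts over the 4 tables, MT-TN 29.5% and MT-TC 16.1%. Those 3 genes and MT-TY are all on the minus strand. The strand setting of the counting is not given in the sources used here. Reads of these genes and of MT-ND6, also on the minus strand, therefore cannot be told apart from reads of the opposite transcripts.

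Some neighbouring mRNA genes share bases, and counts there can be split between them. The start of MT-ATP6 overlaps the end of MT-ATP8 over 46 bases at chrM:8527-8572, and the start of MT-ND4 overlaps the end of MT-ND4L over 7 bases at chrM:10760-10766. MT-ATP6 and MT-CO3 share 1 base, at position 9207. The longer shared stretches are shown on the genes' own strand, with no part singled out.
MT-ATP8 and MT-ATP6: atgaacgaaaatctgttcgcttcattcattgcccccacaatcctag
MT-ND4L and MT-ND4: atgctaa
Both stretches begin with the ATG start codon of the second gene. MT-ATP8 is also the least reproducible of the mRNAs beside MT-ND6. Its coefficient of variation within a group had a median of 21.7% and reached 88.2% in teton_control, against a median of 26.3% for MT-ND6 and 1.94% for MT-CO1. Values for MT-ATP8 and MT-ND6 in the rescue and sgRNA tables are therefore the least certain among the mRNAs.

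The mitochondrial genome supplied very different shares of the counts in different tables. In the hexanediol table it took 5.61% ± 0.106 (SD, n = 3) of the counts in control cells. In the rescue table it took 0.766% ± 0.0148 in shCtrl vector cells, and sgCtrl cells of the sgRNA table gave 2.59% ± 0.10. These are all control cells labelled as hypoxia, but the tables were made separately and the differences between tables were not tested. The makeup differed too: the counts of both rRNAs came to 14.1 per 100 mRNA counts in the hexanediol controls, 62.7 in the rescue controls and 26.7 in sgCtrl.

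**Figure D1:**
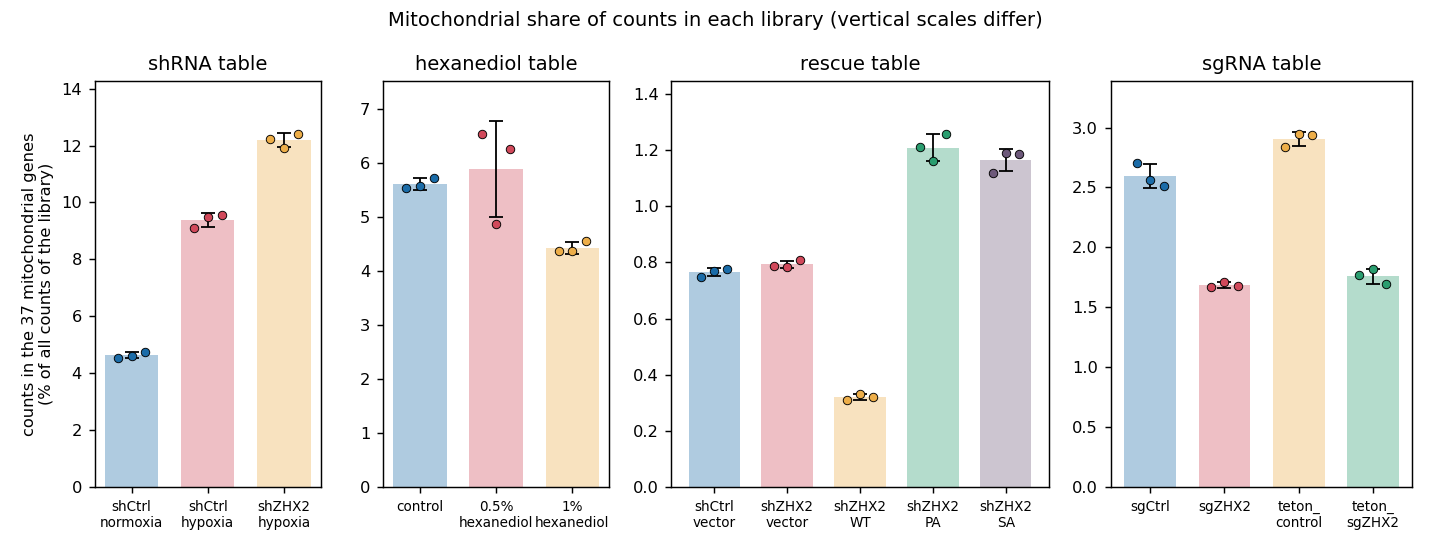
Counts in the 37 mitochondrial genes as a percentage of all counts of a library (vertical axis, different in each panel) for the 15 groups. Points are libraries, bars are group means and error bars are SD (n = 3); the 3 WT libraries of the rescue table lie lowest, around 0.322%, and the second 0.5% hexanediol library lies below the other two of its group.

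Per kilobase of gene, the order of the 15 rRNA and mRNA genes was not the same in the 4 tables, and the ranks given here are among those 15. In shCtrl normoxia MT-CO2 (a core subunit of cytochrome c oxidase, complex IV) was highest at 7327 CPM per kb, and MT-RNR1 (the small-subunit rRNA) was lowest at 572 CPM per kb. In the hexanediol controls MT-ND4L was highest at 9272 CPM per kb. In the rescue table MT-RNR2, the large-subunit rRNA, was highest in all 5 groups, and MT-ATP8 was lowest in each. In the sgRNA table MT-CO1 was highest in all 4 groups, for example 6946 CPM per kb in sgCtrl, and MT-ATP8 was lowest. These are levels of single genes that are transcribed together, since the plus-strand genes share their precursors.

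In hypoxia, nearly every measured mitochondrial transcript of the shCtrl cells was higher than in normoxia. Among the rRNAs and mRNAs, MT-ND6, the rRNAs, MT-ND5 and MT-CO1 rose most. MT-CO1, the catalytic subunit of cytochrome c oxidase, measured 7260, 7319 and 7557 CPM in the normoxia libraries and 27411, 28138 and 28079 CPM in the hypoxia libraries. The groups lay far apart, and the log2 fold change was 1.92 ± 0.02 (SE; edgeR quasi-likelihood test, Benjamini-Hochberg adjusted p = 1.39e-56). MT-ND6, a complex I subunit and the sole mRNA of the minus strand, measured 1210, 1288 and 1414 CPM in normoxia and 6865, 7430 and 7122 CPM in hypoxia (log2 fold change 2.45 ± 0.06). MT-RNR1 measured 523, 552 and 562 CPM in normoxia and 2723, 2841 and 2921 CPM in hypoxia, a log2 fold change of 2.37 ± 0.06. All 15 rRNA and mRNA genes passed the test upward, where 43.1% of all genes tested were called higher.

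The size of the rise differed from gene to gene along the genome. MT-CO3, the third complex IV subunit, measured 3938, 4013 and 3979 CPM in normoxia and 5316, 5492 and 5620 CPM in hypoxia. Its log2 fold change of 0.46 ± 0.02 was the smallest of the 15, and it turned to -0.02 when libraries were scaled by their size alone. MT-ATP8 (0.53) and MT-ND3 (0.57) were also small, and neither passed the test with that scaling. MT-CO1, MT-CO2 and MT-CO3, parts of the same enzyme, thus did not rise alike, with MT-CO2 between the other two. MT-ND5, the largest complex I subunit of the set, rose by 2.25 and MT-CYB, the complex III subunit, by 0.97.

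Counting the tRNA genes, 19 of the 23 tested members were called higher and 1 lower, against 43.1% and 36.8% of all genes tested. The median log2 fold change was 1.23 over the members and 0.12 over all genes. Scaling by library size alone moved the median of all genes to -0.36 and the share of calls that were higher from 53.9% to 29.6%, since the scaling factors were 1.19 in normoxia and 0.847 in hypoxia. Under that scaling MT-CO1 still stood at 1.43 and MT-RNR1 at 1.89. All genes also moved with GC content in this comparison (Spearman's rho 0.69 across genes, which are not independent replicates). A fit with GC content and length as terms gave 2.13 for MT-CO1 and 2.62 for MT-RNR1. RNAs without polyA tails, led by histone genes, summed to 214 CPM in normoxia and 489 CPM in hypoxia, and their part in the result was not tested. In bulk RNA scaled to library depth, changes in genomes per cell, in RNA per genome and in the amount of other RNA cannot be told apart.

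Scaled to the mitochondrial mRNAs themselves, hypoxia shifted the makeup of the set. In this second fit each library was scaled to the summed counts of its 13 mRNAs, so a gene that gains share makes others lose it. Of 23 members 8 were called higher and 11 lower, where 3.86% of all genes were higher and 84.7% lower in that scaling. MT-ND6 gained by 1.01 on the log2 scale, MT-ND5 by 0.81 and MT-CO1 by 0.48, while MT-CO3 stood at -0.98, MT-ATP8 at -0.91 and MT-ND3 at -0.87. MT-CO3 held 11% ± 0.265 (SD, n = 3) of the mitochondrial mRNA counts in normoxia and 5.58% ± 0.0332 in hypoxia. MT-CO1 went from 20.4% ± 0.159 to 28.4% ± 0.415. MT-ATP8, MT-ATP6 (-0.70), MT-CO3 and MT-ND3, the mRNAs that lost most share, lie one after another on the plus strand.

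**Figure D2:**
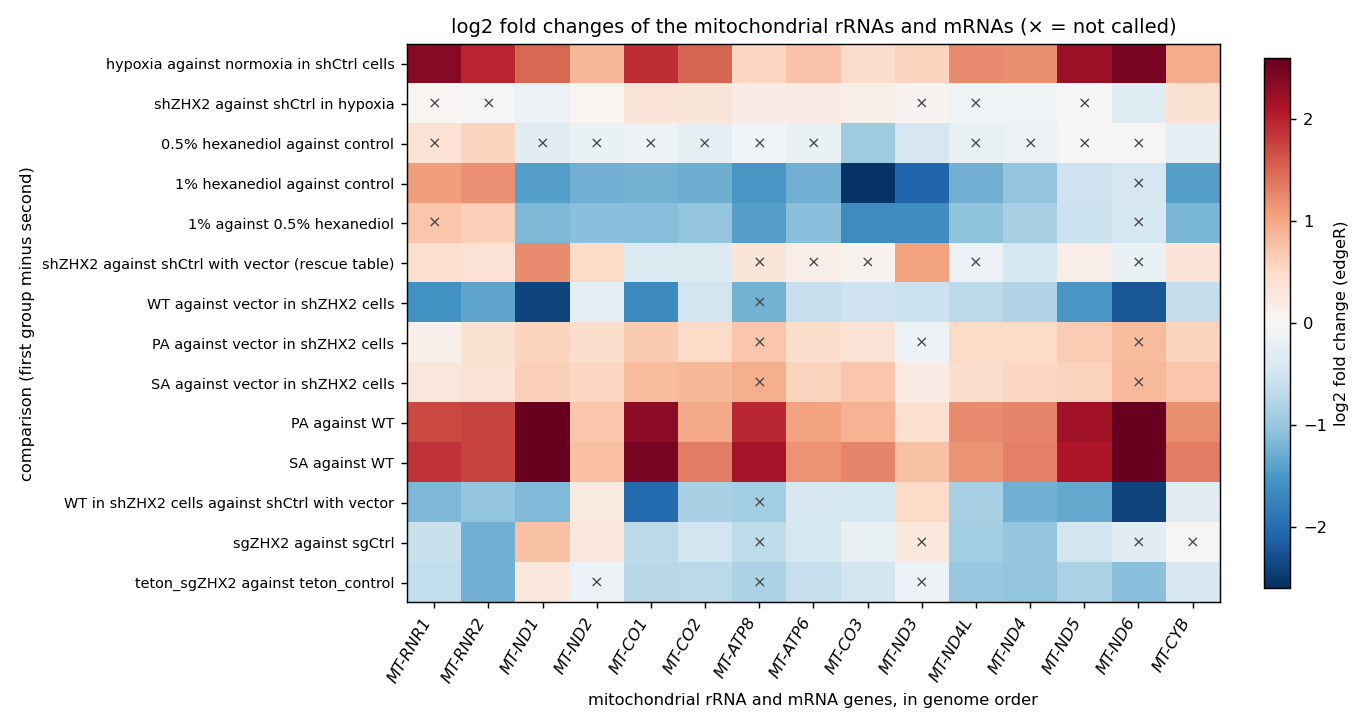
Log2 fold changes (color) of the 2 mitochondrial rRNAs and 13 mRNAs in genome order (columns) for 14 comparisons (rows), with crosses on values that were not called at an adjusted p under 0.05. The hypoxia row is red throughout and the row of WT against vector blue throughout. In the row of 1% hexanediol against control MT-RNR1 and MT-RNR2 are red while the mRNAs are blue.

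Knockdown of ZHX2 in hypoxia was studied in the shRNA table and again in the rescue table, with different outcomes for the mitochondrial mRNAs. In the shRNA table the 3 complex IV mRNAs and MT-CYB rose a little. The complex V mRNAs had higher means too, with MT-ATP6 at 4347 CPM with shCtrl in hypoxia and 5014 CPM with shZHX2. MT-ATP8 averaged 273 and 310 CPM. MT-CO1 measured 35484, 34791 and 35586 CPM in the shZHX2 libraries, all above the shCtrl hypoxia libraries (log2 fold change 0.34 ± 0.02, edgeR adjusted p = 9.1e-20). MT-CO2 measured 18537, 16838 and 18019 CPM against 13863, 14291 and 14499 CPM, a log2 fold change of 0.32 ± 0.03. MT-CYB measured 6517, 6594 and 7034 CPM against 4924, 5098 and 5343 CPM (0.39 ± 0.03). These groups did not overlap. Over all members, 10 of 23 were called higher and 5 lower, where 33.6% of all genes were higher and 33.3% lower. The member median was 0.08, against 0.02 for all genes, so the share of members called lies near that of all genes.

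The complex I mRNAs did not follow complex IV in that comparison. MT-ND6 measured 5782, 5516 and 5801 CPM with shZHX2, below all 3 shCtrl hypoxia libraries (-0.32 ± 0.06, edgeR adjusted p = 0.00266), and with scaling by library size alone it stood at -0.09 and was not called. MT-ND1 (-0.16) and MT-ND4 (-0.11) were called lower, and both became positive with that scaling (0.07 and 0.13), which moved the median of all genes to 0.25. MT-ND5 and MT-ND3 were not called, with 0.02 and 0.08, nor were the rRNAs MT-RNR1 and MT-RNR2, with 0.05 and -0.05. Complex I mRNAs made up 41.6% ± 0.416 (SD, n = 3) of the mitochondrial mRNA counts with shCtrl and 35.1% ± 0.343 with shZHX2, and complex IV mRNAs 48.5% ± 0.481 and 53.9% ± 0.562. MT-TY, one of the printed tRNA genes, was called lower (-0.64 ± 0.22), and MT-TN was not called.

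In the rescue table, shZHX2 cells with vector had more MT-ND1 and MT-ND3 and less of the complex IV mRNAs MT-CO1 and MT-CO2 than shCtrl cells with vector. MT-ND1, a core subunit of complex I, measured 53.0, 57.0 and 62.4 CPM with shCtrl and 130, 138 and 137 CPM with shZHX2. The groups lay apart, with a log2 fold change of 1.23 ± 0.08 (edgeR adjusted p = 1.08e-07), and MT-ND3 stood at 1.04 ± 0.08. MT-CO1 measured 1890, 1885 and 1934 CPM with shCtrl and 1443, 1476 and 1500 CPM with shZHX2, a log2 fold change of -0.37 ± 0.03. MT-CO2 (-0.36) and MT-ND4 (-0.47) were lower as well. Both rRNAs were higher, MT-RNR2 by 0.38 ± 0.03 and MT-RNR1 by 0.42 ± 0.04, and they came to 94.3 ± 1.01 (SD, n = 3) counts per 100 mRNA counts against 62.7 ± 2.29 with shCtrl. Of 20 members 11 were called higher and 4 lower, where 33.9% of all genes were higher and 35.3% lower.

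Set side by side, the knockdown values for MT-CO1 were 0.34 in the shRNA table and -0.37 in the rescue table, those for MT-ND1 were -0.16 and 1.23, and those for MT-CYB were 0.39 and 0.33. The tables were scaled separately and the rescue cells carry a vector as well, so the difference between tables was not tested. The hypoxic shCtrl groups of these tables also differed in hypoxia-induced genes. CA9 averaged 23.5 CPM in the shRNA table and 197 CPM in the rescue table, and NDRG1 484 and 5020 CPM. With shZHX2 NDRG1 averaged 807 CPM in the shRNA table and 2711 CPM in the rescue table, above its control in the first and below it in the second. The mitochondrial share of counts was 0.766% and 0.794% in the shCtrl and shZHX2 vector groups. With the rRNA counts left out the log2 ratio of the shares turned from 0.05 to -0.19.

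The asparagine and cysteine tRNA genes moved far more than any mRNA in that table. MT-TN, printed above, measured 15.2, 17.0 and 15.1 CPM in shCtrl vector cells and 54.0, 53.8 and 57.7 CPM in shZHX2 vector cells. MT-TC measured 12.9, 14.0 and 12.7 CPM against 40.8, 49.3 and 50.7 CPM. Both groups of libraries lay fully apart, with log2 fold changes of 1.81 ± 0.08 and 1.84 ± 0.06 (edgeR adjusted p = 1.11e-15 and 1.15e-39). MT-TY, the next gene on the strand, stood at 2.10 ± 0.27 on 5 to 60 counts per library. MT-TP, on the same strand but far from that cluster, measured 37.0, 39.2 and 38.5 CPM with shCtrl and 30.7, 33.0 and 32.5 CPM with shZHX2, a log2 fold change of -0.25 ± 0.06.

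In the shZHX2 cells labelled WT the mitochondrial transcripts were lower than with vector throughout. MT-CO1 measured 454, 479 and 471 CPM, below the 1443 to 1500 CPM of the vector libraries (-1.65 ± 0.03, edgeR adjusted p = 1.13e-61). MT-ND1 measured 24.2, 28.0 and 26.1 CPM (-2.38 ± 0.10), and MT-RNR2 measured 1245, 1241 and 1264 CPM against 3239, 3226 and 3285 CPM (-1.38 ± 0.03). Of 20 members 19 were called lower and none higher, with MT-ATP8 (-1.22, adjusted p = 0.146) uncalled, where 34.6% of all genes were lower and 35.1% higher. The member median was -1.44, and that of all genes was 0.00. The call for MT-ND2, the smallest at -0.25, was lost when any of 3 libraries was left out, namely the first or second vector library or the first WT library.

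MT-TN and MT-TC were nearly lost from the WT libraries. MT-TN measured 0.90, 0.53 and 0.68 CPM, 76.5-fold lower than in the vector cells, with a log2 fold change of -6.26 ± 0.15 (edgeR adjusted p = 2.98e-21). MT-TC measured 1.28, 1.11 and 1.14 CPM, and its log2 fold change was -5.31 ± 0.10. MT-TY had 4, 0 and 3 counts in the WT libraries against 42, 47 and 60 with vector (-4.10 ± 0.38). MT-TP, the proline tRNA gene, measured 8.97, 9.76 and 11.5 CPM, a smaller drop of -1.68 ± 0.07 that is close to that of MT-CO1. The WT libraries also lay below the shCtrl vector libraries for MT-TN (-4.45 ± 0.19) and MT-TC (-3.48 ± 0.13). Leaving out any one library of the WT or vector group kept MT-TN between -6.50 and -6.10.

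Relative to the mitochondrial mRNAs, the WT cells lost some transcripts and kept others. Scaled to the 13 mRNAs, 10 of 20 members were called lower and 8 higher, where 3.43% of all genes were lower and 82.1% higher. MT-ND1 stood at -1.37, MT-ND6 at -1.22 and MT-CO1 at -0.65, while MT-ND2 stood at 0.75, MT-CO2 at 0.52 and MT-CO3 at 0.46. MT-CO1 held 36.4% ± 0.351 (SD, n = 3) of the mRNA counts with vector and 23.1% ± 0.520 with WT, and MT-CO2 14.8% ± 0.273 and 21.3% ± 1.04. MT-ND1 and MT-ND2 are neighbouring mRNA genes on the plus strand, and MT-CO1 follows them past the cluster of minus-strand tRNAs that holds MT-TN, MT-TC and MT-TY.

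The PA and SA cells moved the other way from WT. MT-CO1 measured 2327, 2331 and 2402 CPM in the PA libraries and 2537, 2670 and 2605 CPM in the SA libraries. Both sets lay above the vector libraries, with log2 fold changes of 0.68 ± 0.03 and 0.82 ± 0.03 (edgeR adjusted p = 4.29e-36 and 5.62e-41), and above the shCtrl libraries too. MT-RNR2 measured 4258, 4110 and 4378 CPM with PA and 4209, 4268 and 4244 CPM with SA (0.39 ± 0.03 and 0.38 ± 0.03 against vector). With PA 14 of 20 members were called higher and 1 lower, where 24.7% of all genes were higher and 22.9% lower. With SA 15 were higher and none lower, where 20.2% were higher and 21.5% lower. The member medians were 0.48 and 0.55, and those of all genes 0.02 and 0.00. Scaling by library size alone moved the median of all genes to 0.17 in the PA comparison. All genes moved with GC content against vector (rho -0.38 for WT, -0.48 for PA and -0.54 for SA across genes), and with GC content and length as terms MT-CO1 stood at -1.80, 0.74 and 0.66.

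MT-TN and MT-TC stayed near the level of the vector cells in both. MT-TN measured 46.5, 39.5 and 45.2 CPM with PA, called lower than vector (-0.34 ± 0.07), and 53.3, 54.2 and 64.6 CPM with SA, not called (0.06 ± 0.07). MT-TC was not called with PA (-0.01 ± 0.05) and measured 54.2, 53.4 and 54.9 CPM with SA (0.20 ± 0.05). Tested directly against WT, all 20 members were higher with PA and all 20 with SA, where 33.2% and 32.1% of all genes were higher. MT-TN stood at 5.92 ± 0.15 and 6.31 ± 0.15, MT-ND1 at 2.95 ± 0.09 and 3.00 ± 0.09, and MT-CO1 at 2.33 ± 0.03 and 2.48 ± 0.03. MT-ND3 (0.43 and 0.76) and MT-ND2 (0.71 and 0.78) differed least among the mRNAs. The comparisons of WT, PA and SA with vector share the vector libraries, and those of PA and SA with WT share the WT libraries.

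**Figure D3:**
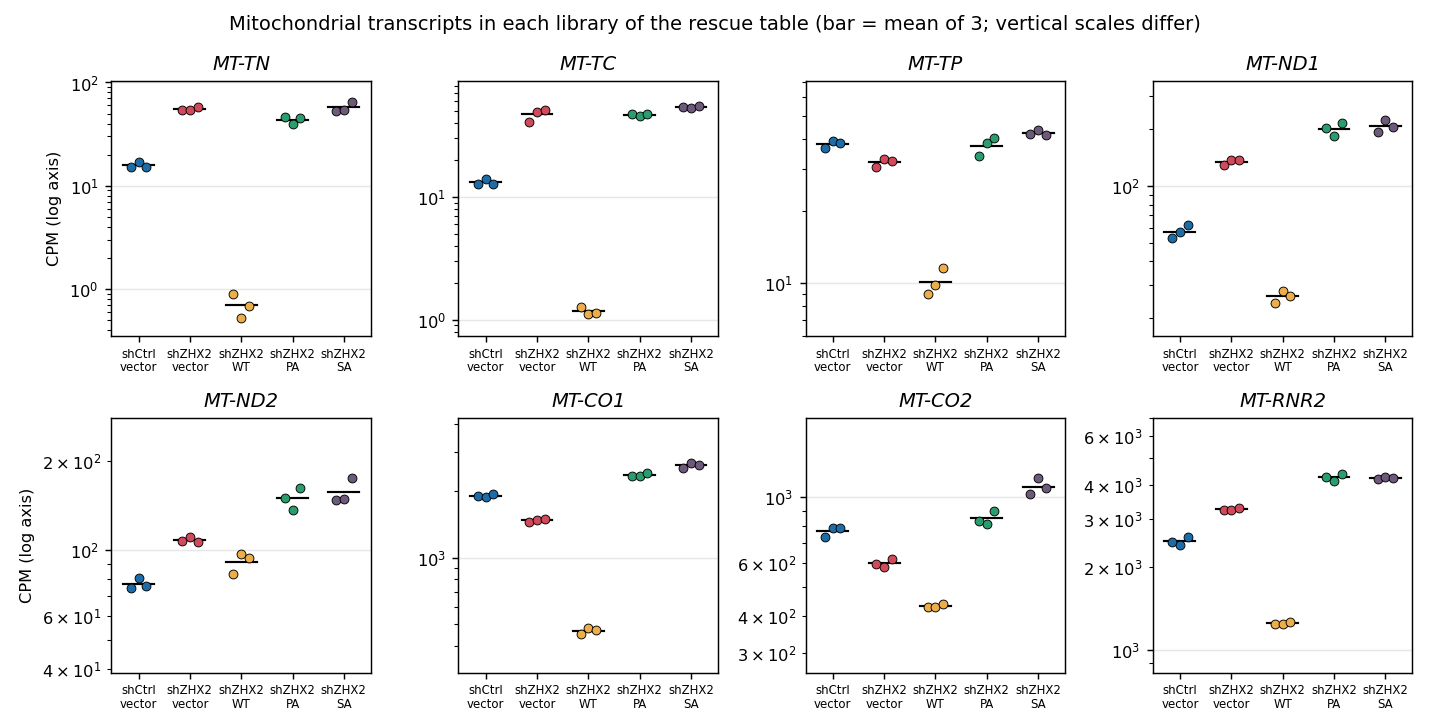
CPM (log axis, different in each panel) of 8 mitochondrial genes in the 15 libraries of the rescue table; points are libraries and bars are means of 3. For MT-TN and MT-TC the WT libraries lie at 0.53 to 1.28 CPM, far below every other group, whereas for MT-ND2 they lie between the shCtrl and the PA and SA libraries.

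Hexanediol at 1% split the mitochondrial set, with the rRNAs higher and the mRNAs lower. MT-RNR2, the large-subunit rRNA, measured 7125, 7136 and 7174 CPM in control cells, 12674, 7477 and 11692 CPM at 0.5%, and 16954, 14832 and 17061 CPM at 1%. At 1% all libraries lay above all others, with a log2 fold change of 1.19 ± 0.16 against control (edgeR adjusted p = 0.000128). MT-RNR1 stood at 1.08 ± 0.28. MT-CO3, the complex IV subunit, measured 3300, 3168 and 3433 CPM in control cells, 1732, 1843 and 1643 CPM at 0.5%, and 462, 701 and 517 CPM at 1%. The 3 groups followed the dose without overlap, with log2 fold changes of -0.92 ± 0.12 at 0.5% and -2.56 ± 0.13 at 1%, and -1.63 ± 0.13 between the doses. The counts of both rRNAs per 100 mRNA counts were 14.1 ± 0.278 (SD, n = 3) in control cells, 23.0 ± 3.40 at 0.5% and 67.8 ± 10.1 at 1%.

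Among the mRNAs, 12 of 13 were called lower at 1%, where 32.3% of all genes were, and MT-ND6 (-0.43 ± 0.19, adjusted p = 0.0785) was not called. MT-ND3, a small complex I subunit, measured 1015, 1055 and 999 CPM in control cells and 223, 287 and 222 CPM at 1% (-2.07 ± 0.12). MT-CO1 measured 9979, 10231 and 9923 CPM in control cells and 4034, 4508 and 4306 CPM at 1% (-1.23 ± 0.10), with the 0.5% libraries at 10300, 7390 and 9846 CPM. MT-ND5, which measured 9825, 10165 and 10830 CPM in control cells and 6477, 7391 and 7282 CPM at 1%, had the smallest called drop (-0.54 ± 0.11). Over all members 3 of 24 were higher at 1% and 14 lower, where 30.2% of all genes were higher and 32.3% lower. The member median was -0.87 and that of all genes -0.04. The higher members were MT-RNR1, MT-RNR2 and MT-TC, and the call of MT-TC (0.35 ± 0.14) was lost when any control library or the second 1% library was left out.

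At 0.5% the changes were fewer and rested in part on 1 library. Here 2 of 24 members were called higher and 3 lower, where 19.4% of all genes were higher and 19.6% lower. MT-CO3 and MT-ND3 (-0.45 ± 0.12) kept their calls whichever single library was left out. MT-CYB (-0.24), MT-TH (0.64) and MT-RNR2 (0.57 ± 0.16) did not, and their adjusted p without 1 library reached 0.169, 0.103 and 0.0531. The second 0.5% library had the lowest MT-RNR1 of the table, 181 CPM against 387 and 383 CPM in the other two, and without it 8 members were called. A fit with the replicate number as a block also called 8. Between the doses 15 of 24 members were lower at 1% and 1 higher, where 27.7% of all genes were lower and 28.3% higher, and MT-RNR2 was the higher one (0.62 ± 0.16). Deviations of libraries with the same replicate number correlated at 0.12, 0.318 and 0.116 here, and the highest correlation of differently numbered ones was 0.168. These calls are from the fit without a block. With the number as a block MT-TG (-0.39) was called lower as well.

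Scaled to the mitochondrial mRNAs, MT-RNR2 stood at 2.27 and MT-RNR1 at 2.16 at 1% hexanediol. MT-CO3 (-1.495) and MT-ND3 (-0.999), neighbouring mRNA genes, lost share, MT-CYB (-0.36) lost less, and MT-ND5 (0.53) and MT-ND6 (0.64) gained it. Counting the rRNAs in the scaling moved MT-ND5 to -0.02. MT-CO3 held 6.28% ± 0.206 (SD, n = 3) of the mitochondrial mRNA counts in control cells, 3.78% ± 0.737 at 0.5% and 2.23% ± 0.330 at 1%. Complex I mRNAs made up 55.3% ± 0.766 in control cells and 64.5% ± 0.955 at 1%, and complex IV mRNAs 30.9% ± 0.751 and 24.2% ± 0.506. In this scaling 11 of 24 members were higher and 5 lower, where 74.6% of all genes were higher and 4.92% lower. RNAs without polyA tails summed to 163 CPM in control cells and 122 CPM at 1%, and their part in the result was not tested.

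**Figure D4:**
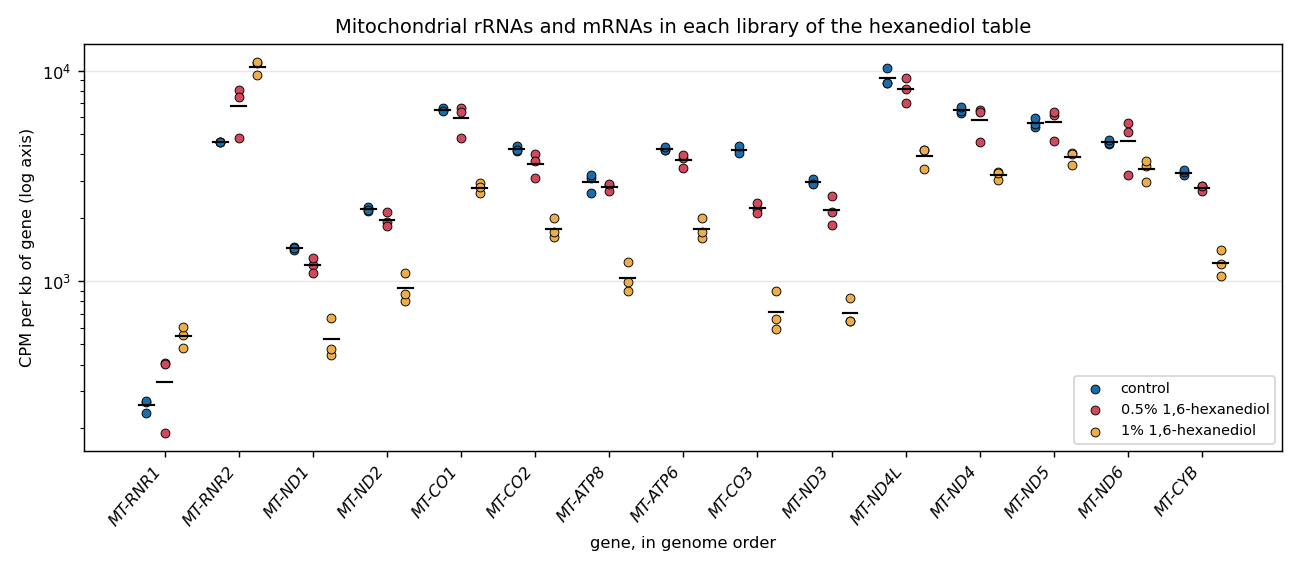
CPM per kilobase (log axis) of the mitochondrial rRNA and mRNA genes, in genome order, in the 9 libraries of the hexanediol table; points are libraries and bars are means of 3. The 1% libraries lie above the controls for MT-RNR1 and MT-RNR2 and below them for the mRNAs, farthest below for MT-CO3 and MT-ND3.

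In the sgRNA table, the libraries labelled sgZHX2 had less of the large rRNA and of most mRNAs, and more MT-ND1. MT-RNR2 measured 4544, 4474 and 4374 CPM in sgCtrl and 1805, 1895 and 1920 CPM in sgZHX2, a log2 fold change of -1.25 ± 0.02 (edgeR adjusted p = 5.69e-37). In the second pair it measured 4778, 4799 and 4775 CPM in teton_control and 2046, 2056 and 1934 CPM in teton_sgZHX2, again -1.25 ± 0.02 (adjusted p = 9.84e-37). The drop was thus of the same size in both pairs, and the difference between them was 0.00 ± 0.03. MT-RNR1, the small rRNA, stood at -0.58 ± 0.03 and -0.64 ± 0.03, and MT-ND4 stood at -1.01 ± 0.07 and -1.02 ± 0.07. MT-CO1 measured 10958, 10742 and 10429 CPM in sgCtrl and 6616, 6739 and 6694 CPM in sgZHX2 (-0.68 ± 0.02), and the second pair gave -0.72 ± 0.02.

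MT-ND1 lies directly after MT-RNR2 on the plus strand, with MT-TL1 (a leucine tRNA gene, as is MT-TL2) between them, and went the opposite way. It measured 395, 365 and 348 CPM in sgCtrl and 641, 624 and 607 CPM in sgZHX2 (0.76 ± 0.09, adjusted p = 3.75e-05 by edgeR). In the second pair it measured 436, 473 and 403 CPM in teton_control and 531, 587 and 479 CPM in teton_sgZHX2 (0.28 ± 0.09, adjusted p = 0.0165). That call was lost without the third teton_control library (0.0583) or the second teton_sgZHX2 library (0.0571). MT-ND2, the next mRNA, was higher in the first pair (0.29 ± 0.07) and was not called in the second (-0.14 ± 0.07).

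Of 21 members, 4 were called higher and 10 lower in the first pair, where 37.0% of all genes were higher and 36.1% lower. In the second pair 1 was higher and 12 lower, where 34.4% were higher and 34.7% lower. The member medians were -0.28 and -0.51, and those of all genes 0.01 and 0.00. All genes moved with GC content in both pairs (rho 0.56 and 0.47 across genes). With GC content and length as terms MT-RNR2 stood at -0.97 and -1.08, and MT-ATP6 and MT-CO3 were no longer called in the first pair. The call of MT-ND6 in the second pair (-1.08 ± 0.41) was lost without the second teton_control library, which held 462 CPM against 209 and 203 CPM in the others.

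Scaled to the mitochondrial mRNAs, both pairs gave 10 of 21 members higher and 4 lower, where 65.6% and 78.2% of all genes were higher and 11.1% and 4.45% lower. MT-ND1 stood at 1.32 and 0.98, MT-ND2 at 0.84 and 0.56, MT-ND3 at 0.83 and 0.54 and MT-CYB at 0.60 and 0.31. MT-RNR2 stood at -0.69 and -0.55, and MT-ND4 at -0.45 and -0.32. MT-ND1 held 1.77% ± 0.0380 (SD, n = 3) of the mitochondrial mRNA counts in sgCtrl and 4.42% ± 0.157 in sgZHX2, and 1.90% ± 0.151 and 3.75% ± 0.253 in the second pair. The rRNA counts per 100 mRNA counts were 26.7 ± 0.795 and 18.4 ± 0.508 in the first pair and 25.8 ± 0.633 and 19.5 ± 0.351 in the second.

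The effects in the pairs were compared by an interaction term, as the teton_sgZHX2 effect minus the sgZHX2 effect. 5 of 21 members passed it, all downward, where 8.34% of all genes were lower. They were MT-ND1 (-0.47 ± 0.12, edgeR adjusted p = 0.026), MT-ND2 (-0.43 ± 0.10), MT-TC (-0.48 ± 0.11), MT-CO3 (-0.30 ± 0.09) and MT-CYB (-0.43 ± 0.09). MT-CYB measured 878, 795 and 783 CPM in sgCtrl and 819, 860 and 842 CPM in sgZHX2, and 910, 1031 and 1002 CPM in teton_control and 713, 787 and 738 CPM in teton_sgZHX2. It thus overlapped between the groups of the first pair and lay fully apart in the second.

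**Figure D5:**
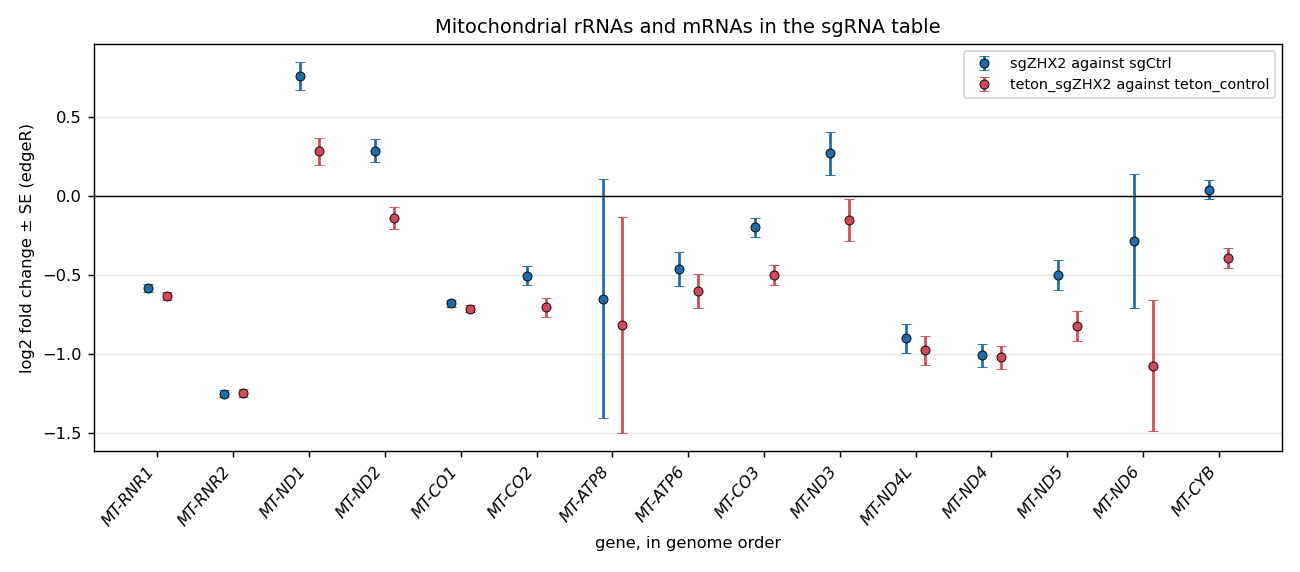
Log2 fold changes with SE (vertical axis; edgeR, n = 3 per group) of the mitochondrial rRNA and mRNA genes in genome order for sgZHX2 against sgCtrl and teton_sgZHX2 against teton_control. Both pairs give -1.25 for MT-RNR2 and a positive value for MT-ND1, and the points part most for MT-ND6, whose errors are wide, and for MT-ND1, MT-ND2 and MT-CYB.

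Of the 8 tRNA genes tested in the shRNA table, 4 were called higher in hypoxia and 1 lower. Among all genes 43.1% were higher and 36.8% lower, so the share called higher lies near that of all genes. The 4 higher ones were all on the minus strand. MT-TN measured 143, 147 and 154 CPM in normoxia and 700, 694 and 686 CPM in hypoxia, with a log2 fold change of 2.23 ± 0.03 (edgeR adjusted p = 4.4e-56). MT-TC (2.19 ± 0.04), MT-TP (2.06 ± 0.05) and MT-TY (1.75 ± 0.24) rose with it. No plus-strand tRNA gene tested was called higher. MT-TG (-0.12 ± 0.21), MT-TI (0.75 ± 0.38) and MT-TR (-0.61 ± 0.31) were not called. The call of MT-TH (-0.52 ± 0.24, edgeR adjusted p = 0.0461) was lost when any one of the 6 libraries was left out. These 4 genes had 155 to 455 counts each in the shRNA table, and MT-TY had 370. All genes moved with GC content in hypoxia (rho 0.69 across genes). The plus-strand genes had 23.1% to 36.2% GC and the 4 minus-strand ones 33.8% to 45.5%. With GC content and length as terms MT-TG and MT-TH turned positive. The part of GC content in the strand difference was not tested. Minus-strand genes took 98.2% of the tRNA counts in normoxia and 99.6% in hypoxia, against 66.0% in the hexanediol controls. In that table the glycine tRNA gene MT-TG alone had 5920 counts over the 9 libraries, where MT-TN had 1990. The rest of the tRNA genes were near 0: the 11 that passed the filter in no table had 8 to 93 counts each over all 45 libraries.

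Most nuclear genes that serve the mitochondrial genome were lower in hypoxia. There, of 55 nuclear factors of mitochondrial transcription, RNA processing and RNA modification and related steps, 41 were lower and 9 higher, with a median of -0.81, where 36.8% of all genes were lower and 43.1% higher. TFAM averaged 39.7 CPM in normoxia and fell by 2.03 ± 0.08 on the log2 scale, and LRPPRC stood at -2.67 ± 0.06, PNPT1 (a polynucleotide phosphorylase of the RNA-degrading complex) at -3.04 ± 0.18 and TEFM (the transcription elongation factor) at -2.06 ± 0.27. POLRMT, the polymerase, was higher (0.60 ± 0.04). Within that list 18 of 21 genes of RNA processing, stability and decay were lower and 3 higher, beside the same shares of all genes. All genes moved with GC content in hypoxia (rho 0.69 across genes), and these nuclear values are given without GC content and length as terms.

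LRPPRC, which binds and stabilises mitochondrial mRNAs, varied between the other comparisons. It stood at -0.58 ± 0.08 with shZHX2 in the shRNA table, and at -1.38 ± 0.05 with shZHX2 in the rescue table, 1.96 ± 0.05 with WT, 0.35 ± 0.05 with PA and 0.16 ± 0.05 with SA, each against its control, and at -1.10 ± 0.03 and -0.74 ± 0.03 in the sgRNA pairs. The mitochondrial share of counts was lowest in the WT cells, 0.322%, and LRPPRC averaged 105 CPM there against 26.9 CPM with vector. TFAM stood at 0.75 ± 0.07 with WT and POLRMT at -0.30 ± 0.04. At 1% hexanediol TRMT10C, a subunit of mitochondrial RNase P, stood at -1.31 ± 0.08 and REXO2, an oligoribonuclease, at 1.10 ± 0.09. TFAM (0.04 ± 0.08) and LRPPRC (0.08 ± 0.07) were not called there, and POLRMT was lower (-0.42 ± 0.13). All genes moved with GC content in these comparisons too. The rho across genes was -0.22 with shZHX2 in the shRNA table and 0.26 in the rescue table. It was -0.38 with WT, -0.48 with PA, -0.54 with SA, 0.56 and 0.47 in the sgRNA pairs and -0.30 at 1% hexanediol. The values of these nuclear genes are given without GC content and length as terms.

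The nuclear-encoded partners of the same complexes gave other counts than the mitochondrial mRNAs. Of 52 nuclear subunits of complexes I, III, IV and V, 50 were tested in the shRNA table, and 26 were higher and 16 lower in hypoxia with a median of 0.15, where 43.1% of all genes were higher and 36.8% lower. At 1% hexanediol 33 of 51 were lower and 4 higher (median -0.37), where 32.3% of all genes were lower and 30.2% higher. COX4I1, a complex IV subunit, was among the lower ones (-0.49 ± 0.08). In the rescue table, with shZHX2, 37 of 51 were higher and 6 lower (median 0.51), where 33.9% and 35.3% of all genes were. In the WT cells 14 were higher and 27 lower (median -0.13), where 35.1% and 34.6% of all genes were. In the PA cells 4 were higher and 41 lower (median -0.41), where 24.7% and 22.9% of all genes were. In the SA cells 24 were higher and 11 lower (median 0.10), where 20.2% and 21.5% of all genes were. With PA the mitochondrial mRNAs of complex IV were higher while all 10 tested nuclear subunits of complex IV were lower. All genes moved with GC content and with transcript length in the PA comparison (Spearman's rho -0.48 and 0.395 across genes). In hypoxia these values were 0.69 and -0.32. The values of the nuclear subunits are given without GC content and length as terms, and the part of either in them was not tested. In the first pair of the sgRNA table, 19 of 51 were higher and 24 lower, where 37.0% and 36.1% of all genes were. In the second pair 17 were higher and 15 lower, where 34.4% and 34.7% of all genes were, so the shares called higher lie near those of all genes in both pairs.

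Nuclear copies of mitochondrial sequence limit how exactly some members were counted. Of 404 annotated nuclear copies, 3 to 12 passed the filter in a table. MTATP6P1, a copy 98.5% identical to MT-ATP6 over 681 bases, averaged 5.89 counts per 100 MT-ATP6 counts in normoxia and 6.61 in hypoxia, but 33.1 in the hexanediol controls. In hypoxia 6 of 6 tested copies were called higher, beside 43.1% of all genes, and MTCO1P12 stood at 2.10. In the WT cells 3 of 3 were lower, beside 34.6% of all genes. At 1% hexanediol 7 of 12 copies were lower and 1 higher, beside 32.3% and 30.2% of all genes, with MTATP6P1 at -1.32. Reads of a copy and of its mitochondrial gene can be exchanged by the counting, so the members with such copies carry that uncertainty. A chosen copy was aligned for MT-ATP6, MT-ATP8, MT-ND1, MT-ND2, MT-CO1, MT-CO2 and MT-CO3 only. Identity was 97.6% to 99.1%, highest for MT-ND1 (over 352 bases). Copies of the other members, the rRNAs among them, were not aligned.

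Across the 15 rRNA and mRNA genes the log2 fold change had a Spearman's rho with gene length of 0.40 in hypoxia and 0.47 at 1% hexanediol (15 genes of the same libraries, given as a description). Over the 15 comparisons, MT-ND1, MT-CO3 and MT-CYB were called in 14 each, and MT-ATP8 in 6. MT-CO3 was called higher in 6 and lower in 8, and MT-RNR2 higher in 9 and lower in 4. Several comparisons share libraries, so these counts do not add up as independent results.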

How the data were processed

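PolyA-selected RNA (selected in 2 rounds) was sequenced as 150-base read pairs, per the labels' protocols. The deposited tables hold raw counts per gene that the authors made, 1 column per library in each of 4 tables. The submitters' processing notes name FastQC, HISAT2, featureCounts, DESeq2 and hg38 without versions or roles. The annotation, strand setting and treatment of multimapping reads could not be read from the labels (not given in the sources used here). Columns were matched to samples by name, and the sgNC columns were matched to the sgCtrl titles.

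Each table was fitted on its own over all its groups with edgeR 4.0.16 (R 4.3.3): filterByExpr, TMM scaling, quasi-likelihood test, Benjamini-Hochberg adjustment over all genes tested, called at an adjusted p under 0.05. CPM values are TMM-scaled, fold changes are log2, and the SE is the absolute log2 fold change over the square root of F. A second fit scaled each library to its 13 mitochondrial mRNAs. Shares are of raw total counts and carry no test. With 3 libraries against 3 an exact permutation test cannot go below 0.1, so none was used. No pair of libraries agreed within sampling noise (chi-square per degree of freedom 1.767 to 29.53).

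Alternatives were scaling by library size, TMM without the mitochondrial genes, DESeq2 1.42.0, no filter, a replicate block, GC content and length as spline terms (df 5 each), each library left out, and other mitochondrial scalings. Deviations of same-numbered libraries correlated most in 1% against 0.5% hexanediol (0.12, 0.318 and 0.116). The highest correlation of differently numbered libraries there was 0.168. The main fit took no pairing in any comparison, and the replicate block was only an alternative. The fits were tested on simulated counts. Members and gene lists were chosen with earlier results of these data known. All members are described by role. Genes that are no member were named from the 3 largest called changes of their list whose mean log2 CPM was 1 or more, beside ZHX2, POLRMT, TFAM, LRPPRC and the copies MTCO1P12 and MTATP6P1, which were always shown. Depth limits the counting precision of low genes, and no interval was computed because replicates give the error.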

Additional observations from a re-analysis of the deposited data

Results flagged for a closer look

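5 mitochondrial genes responded differently in the pairs of the sgRNA table by the interaction term of the edgeR fit, which gave a difference of effects (teton_sgZHX2 minus sgZHX2) with an adjusted p under 0.05. The difference was -0.475 for MT-ND1, the complex I mRNA, with effects of 0.76 and 0.28 in the first and second pair. It was -0.429 for MT-ND2 (0.29 and -0.14) and -0.479 for MT-TC, the cysteine tRNA gene (0.36 and -0.12). It was -0.303 for MT-CO3 (-0.20 and -0.50) and -0.433 for MT-CYB (0.04 and -0.40). All genes moved with GC content in this contrast too (rho -0.49 across genes). With GC content and length as terms the differences were -0.489, -0.534, -0.511, -0.336 and -0.478 in the same order.

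MT-ND2, MT-TC and MT-CYB kept their calls when any 1 of the 12 libraries was left out, with differences of -0.487 to -0.363, -0.555 to -0.387 and -0.472 to -0.392. MT-ND1 lost its call in 8 of 12 such fits (highest adjusted p 0.0672) and MT-CO3 in 10 of 12 (0.1).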

How the results depend on the processing

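With scaling by library size alone the median of all genes moved by over 0.1 in hypoxia (0.12 to -0.36), shZHX2 of the shRNA table (0.02 to 0.25), 0.5% and 1% hexanediol (0.00 to 0.12, -0.04 to 0.13), PA against vector (0.02 to 0.17), PA against WT (0.00 to 0.25) and WT against shCtrl (-0.01 to -0.12). The share of calls that were higher then went from 53.9% to 29.6%, 50.3% to 67.6%, 49.7% to 65.9%, 48.3% to 59.8%, 52.0% to 76.4%, 49.6% to 70.6% and 50.1% to 34.1%. Without the filter the hypoxia median was 0.00, and with GC and length terms -0.03. Those terms moved the share of higher calls in the difference of the sgRNA effects from 59.0% to 78.0%. That scaling turned MT-CO3 in hypoxia (-0.024), MT-RNR2 (0.187), MT-ND1 (0.072), MT-TN (0.228), MT-TC (0.109) and MT-ND4 (0.128) in shZHX2 of the shRNA table, and MT-TC with PA (0.135).

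GC and length terms turned MT-TG (0.767) and MT-TH (0.351) in hypoxia, MT-ATP8 (-0.053) and MT-TP (-0.37) with shZHX2, MT-TN (-0.174) and MT-ND3 (-0.035) with SA, MT-ND2 in WT against shCtrl (-0.053), MT-TP with sgZHX2 (0.133), MT-TC with teton_sgZHX2 (0.133) and MT-RNR2 in the difference of effects (-0.107). With the replicate block as well these stood at 0.768, 0.352, -0.053, -0.372, -0.175, -0.033, -0.05, 0.133, 0.134 and -0.108, and MT-ND3 with shZHX2 (-0.138), MT-TC with PA (0.124) and MT-ND3 with teton_sgZHX2 (0.258) turned. The replicate block alone raised the calls at 0.5% hexanediol from 5 to 8 and left the other 29 counts within 1.5 times. It changed 11 of 302 single-gene calls, 10 of them gained. GC and length terms gave 3 calls at 0.5% hexanediol and 8 in the difference of effects. DESeq2 and TMM without the mitochondrial genes turned none of the 302 values. The cause of each turn was not tested.

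Leaving out a library gave 2 to 8 calls at 0.5% hexanediol (5 to 12 within the mitochondrial mRNAs, 12 without the second 0.5% library, where MT-TN stood at 0.309, against -0.311 without the first). It gave 3 to 5 in the difference of effects, with 3 in each of 7 fits, those without sgCtrl replicate 2 or 3, any sgZHX2 library, or teton_control replicate 1 or 2. Over 1932 such gene fits 1813 kept their call, 90 lost and 28 gained one.

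Within the mitochondrial mRNAs, median-of-ratios scaling turned MT-ND4L (0.051) and MT-ND4 (0.042) in hypoxia, MT-RNR1 (0.058), MT-ND2 (0.063), MT-TN (0.001) and MT-ND5 (0.023) with shZHX2, MT-CO3 (-0.038) and MT-ND4L (-0.301) with shZHX2 and vector, and MT-RNR1 (-0.484), MT-RNR2 (-0.316), MT-ND1 (-0.462), MT-CO2 (-0.157) and MT-ND4L (-0.196) in WT against shCtrl. It left 1 call in the difference of effects, against 6. Scaling to mRNAs and rRNAs turned MT-ND4 (-0.505) and MT-ND5 (-0.023) at 1% hexanediol, the same genes between doses (-0.396 and -0.085), MT-ND4L with shZHX2 and vector (-0.215), and MT-ATP6 (0.014), MT-ND5 (0.039) and MT-CYB (0.156) with SA. Without the rRNA counts the log2 ratio of mitochondrial shares was -0.872 at 1% hexanediol, -0.838 between doses, -0.188 with shZHX2 and vector (reversed), -1.139 with WT, 0.7 with PA, 0.705 with SA, -1.327 in WT against shCtrl, -0.527 with sgZHX2 and -0.653 with teton_sgZHX2.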
